A study of Homo sapiens with 6 samples.

Results

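The transforming growth factor β (TGFβ) genes of A549 cells were described here as 10 genes picked by symbol from the 24846 genes of the deposited table, and all 10 were found. They are the ligand genes TGFB1 and TGFB2, the receptor genes TGFBR1, TGFBR2 and TGFBR3, the signal transducers SMAD2 and SMAD3, and the feedback genes SMAD7, SKIL and PMEPA1. The A549 line was derived from an adenocarcinoma of the human lung and is labelled wild type. The 3 cultures treated with amorphous calcium carbonate (ACC) were grown for 8 passages in calcium-depleted DMEM/F12 to which ACC was added at 2 mM elemental calcium. The 3 control cultures were grown for 8 passages in complete DMEM/F12, whose calcium is calcium chloride at a lower concentration, and both media held fetal bovine serum and antibiotics. The form and the amount of calcium therefore changed together. ACC also brought carbonate, and by the study's methods its suspensions held sodium tripolyphosphate as a stabilizer. The study also reports that ACC raised the pH of acidified medium. These differences cannot be told apart, and every result rests on a single cell line. Polyadenylated RNA was sequenced, and the labels give no separate origin for the replicate cultures, so the p-values cover the spread among these libraries only.

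TGFβ is secreted in a latent complex and must be released before it binds its receptors. The type II receptor binds the active ligand and phosphorylates the type I receptor, which then phosphorylates SMAD2 and SMAD3. These enter the nucleus with SMAD4 and change transcription. Some of the genes they switch on, SMAD7, SKIL and PMEPA1 among them, encode inhibitors of the same pathway. In carcinoma cells of the lung, A549 included, TGFβ is known as an inducer of epithelial-mesenchymal transition.

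The starts of 3 genes are shown, picked by their changes: PMEPA1 had the largest fall with ACC, and the receptor genes TGFBR1 and TGFBR2 moved in opposite directions. Whether these sequences have a part in the changes was not tested. Each is given as 150 bases before and 20 bases from the annotated start. The sequences come from RefSeq on GRCh38.p14, 5′ to 3′ on the strand of the gene, from the window whose start is that of the main (MANE Select) transcript in GENCODE 44. Capitals mark a match to a searched motif.
PMEPA1, chr20:57709996-57710165, minus strand: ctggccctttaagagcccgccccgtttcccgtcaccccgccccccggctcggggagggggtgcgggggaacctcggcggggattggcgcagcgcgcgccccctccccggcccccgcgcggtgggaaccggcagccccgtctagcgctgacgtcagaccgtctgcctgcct
TGFBR1, chr9:99104963-99105132, plus strand: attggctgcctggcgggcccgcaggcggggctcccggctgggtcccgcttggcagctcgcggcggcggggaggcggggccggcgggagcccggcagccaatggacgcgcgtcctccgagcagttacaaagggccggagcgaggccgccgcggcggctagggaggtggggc
TGFBR2, chr3:30606451-30606620, plus strand: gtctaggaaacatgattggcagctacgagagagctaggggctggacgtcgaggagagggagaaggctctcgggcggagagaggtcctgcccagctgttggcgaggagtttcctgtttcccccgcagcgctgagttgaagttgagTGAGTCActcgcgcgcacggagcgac
The 3 motifs, searched on both strands, were the SMAD palindrome GTCTAGAC, the SMAD box AGCCAGACA and the AP-1 motif TGAGTCA, and no matches overlapped. Windows of 300 bases, 250 before and 50 from each start, covered all 10 genes with 28 windows. GTCTAGAC and AGCCAGACA were in none of the 28, and in 0.202% and 0.288% of all 35116 windows of the RefSeq table. With motifs this rare, no match in 28 windows is the usual outcome for any genes. Only exact matches were counted and shorter forms were not searched, so the absence does not show that SMAD sites are missing. TGAGTCA was in 1 window of TGFBR2, where it spans the start, and in 1 window of SMAD3, against 4.95% of all windows. A match of letters is a description of sequence and does not show binding.

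The libraries held between 21771645 and 24805486 reads in genes. Mitochondrial genes took 4.39% to 5.70% of the reads with ACC and 4.04% to 4.29% in control, and the part of this difference in the results was not tested. The keratin genes KRT8 and KRT18, which mark epithelium, were abundant, with means of 81494 and 44899 normalized counts in control cells. All 7 epithelial markers differed between the groups, 4 higher and 3 lower with ACC, and their list summed to 165804 to 172271 normalized counts with ACC and 216556 to 221664 in control. The higher markers were CDH1, which encodes E-cadherin (log2 fold change 1.102), CLDN4 (1.16), KRT19 (0.64) and EPCAM (0.62), and the lower were KRT7 (-0.50), KRT18 (-0.42) and KRT8 (-0.31). The part of these markers in the results was not tested. Genes of alveolar type II cells were not abundant: NKX2-1 had no read in any library, and the 5 such genes in the table summed to at most 30.7 normalized counts in a library. The 5 leukocyte markers in the table summed to 7.46 to 11.2 normalized counts with ACC and 2.67 to 6.74 in control, with CD3E at 0, and the 4 endothelial markers to 8.66 to 14.3 and 1.92 to 4.45, with KDR at 0. All 6 tested fibroblast markers were lower with ACC, their list summing to 583 to 712 normalized counts with ACC and 2360 to 2539 in control. Most of that sum was COL1A1, while COL1A2 and DCN had at most 1 read per library.

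All 10 genes passed the test for a difference between ACC and control, with limma adjusted p-values across 19318 genes at or under 0.05. Lower with ACC were 8 of the 10, and 2 were higher. Of all tested genes, 21.9% were lower and 21.3% higher by the same rule. Among the 9906 tested genes whose mean reached 200 normalized counts, as that of all 10 did, the shares were 31.8% and 28.9%. The 3 values with ACC did not overlap the 3 control values for any of the 10, as was the case for 51.4% of all tested genes and for 67.9% of those above that level. With a 2-fold change and at least 30 reads in 1 library also required, TGFBR1 and PMEPA1 were lower, 2 of 10, and none was higher. By that stricter rule 2.24% of all tested genes were lower and 2.77% higher, and the shares among the more abundant genes were not computed. The median log2 fold change of the 10 was -0.53, against 0.00 over all tested genes. The 10 were chosen with earlier results of these data known, so these counts describe them and are not a test of the set. A lower value in bulk RNA can come from fewer cells that express a gene or from less RNA per cell, and these cannot be told apart.

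**Figure D1:**
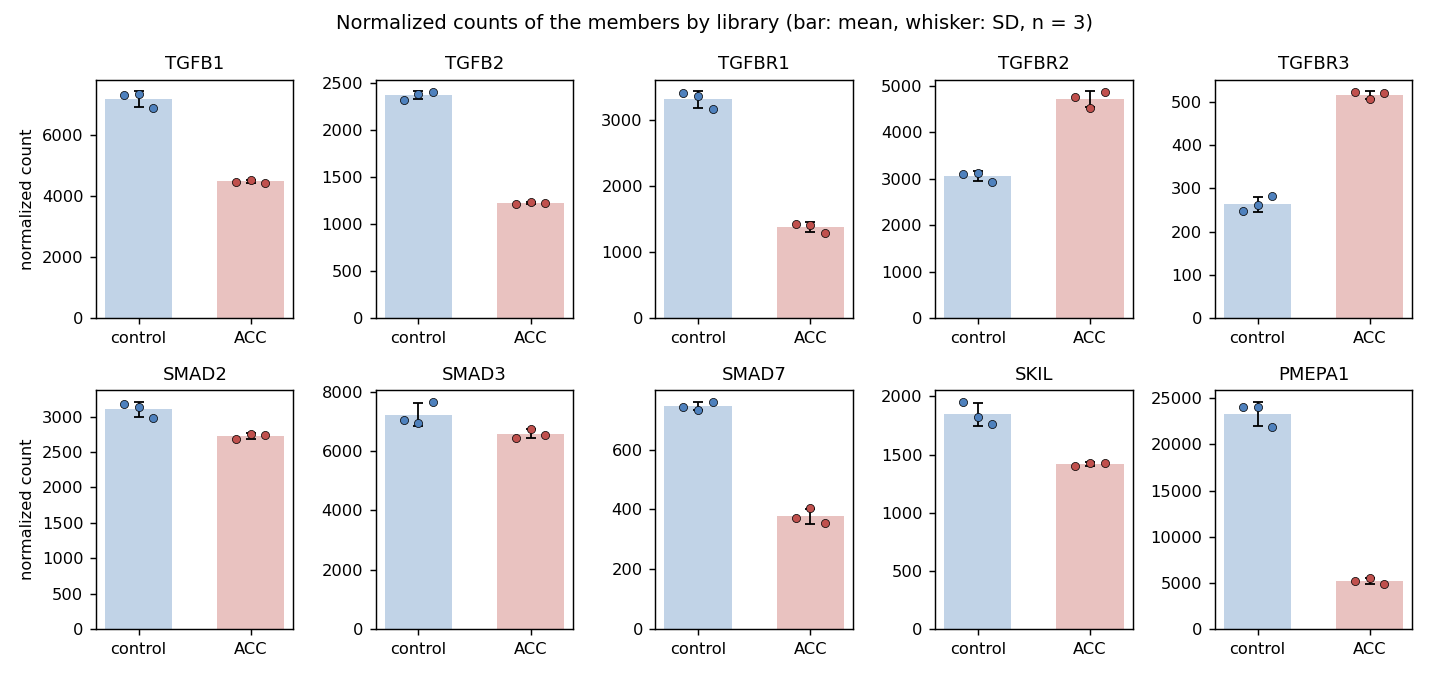
Normalized counts (vertical axis, from 0) of the 10 TGFβ genes in the 3 control and the 3 ACC libraries, with 1 point per library, a bar for the mean and a whisker for the SD. TGFBR2 and TGFBR3 stand higher with ACC and the other 8 lower, and PMEPA1 shows the widest gap, from 23331 to 5176.

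Both ligand genes were lower with ACC. TGFB1 encodes the form of TGFβ with the broadest expression and lies on chromosome 19 of GRCh38 from 41301587 to 41353922. Its normalized counts were 4472, 4537 and 4428 with ACC and 7309, 7349.9 and 6883 in control. The ACC libraries lay close together, at 4479 ± 54.9 (SD, n = 3), and well under the 7181 ± 259 (SD, n = 3) of control. TGFB1 had a log2 fold change of -0.68 (standard error, SE, of 0.0359, limma adjusted p = 2.92e-11), or 62.4% of the control level. A stretch of 215 exon bases of TGFB1 is shared with HNRNPUL1 on the other strand, a gene that had 19800 to 21487 reads with ACC and 19585 to 22076 in control. The sources used here do not give whether strand was used in counting, and reads from such a stretch cannot be assigned with certainty.
TGFB2 encodes a second ligand, which binds the type II receptor poorly without the co-receptor TGFBR3, and lies on chromosome 1 from 218345336 to 218444619. Normalized counts of TGFB2 were 1217, 1233 and 1231 with ACC and 2324, 2387 and 2408 in control. No library stood apart from its group, and the SD was 8.71 with ACC and 44.1 in control. The log2 fold change was -0.95 (SE 0.0401, limma adjusted p = 1.25e-12), with a 95% interval from -1.04 to -0.87, so a 2-fold change lay within the interval. TGFB2 shares 701 exon bases with the antisense gene TGFB2-AS1, which had between 11 and 26 reads per library. It also shares 1371 exon bases with TGFB2-OT1, a long noncoding RNA gene on the same strand that the deposited table does not hold. Within a library the log2 ratio of TGFB2 to TGFB1 was -1.88 to -1.85 with ACC and -1.65 to -1.51 in control, a 1.21-fold lower ratio with groups that did not overlap (exact permutation test, two-sided, p = 0.10, the smallest that 3 against 3 libraries allow).

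The receptor genes moved in opposite directions. TGFBR1, the type I receptor kinase that phosphorylates SMAD2 and SMAD3, lies on chromosome 9 from 99104038 to 99154192. It had 1426, 1416 and 1298 normalized counts with ACC and 3406, 3369.5 and 3171 in control. Replicate 3 was the lowest of its group in both conditions, and the groups were far apart. TGFBR1 fell to 41.6% of the control level (log2 fold change -1.26, SE 0.0456, limma adjusted p = 1.60e-13).
TGFBR2, the type II receptor that binds ligand and activates TGFBR1, lies on chromosome 3 from 30606601 to 30694142. Its normalized counts were 4758, 4523 and 4858 with ACC and 3109, 3129 and 2932.5 in control. Every ACC library lay far above every control library. The log2 fold change was 0.62 (SE 0.0398, limma adjusted p = 4.19e-10), a 1.54-fold rise.
TGFBR3 encodes betaglycan, a co-receptor that has no kinase and presents ligand, TGFB2 above all, to the signaling receptors. This gene lies on chromosome 1 from 91680343 to 91906335 and had the fewest reads per kilobase of the 10 in control cells. It had 521, 505 and 519.7 normalized counts with ACC and 247, 260.5 and 281 in control. All ACC values lay far above the control values, a 1.96-fold rise (log2 fold change 0.97, SE 0.0688, limma adjusted p = 1.78e-09). The 2-fold threshold lay inside its 95% interval, from 0.83 to 1.12, and without control replicate 3 the log2 fold change was 1.02 and the gene passed it.

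**Figure D2:**
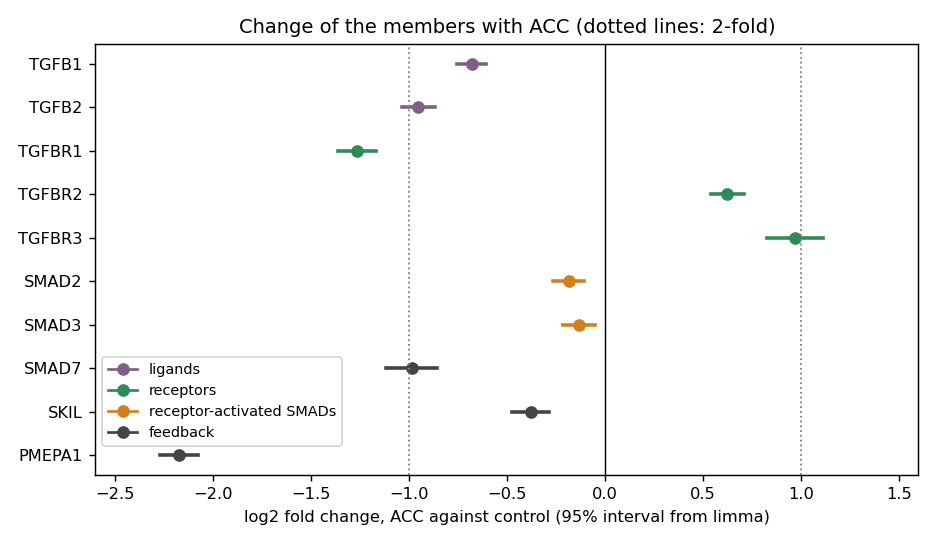
Log2 fold change with ACC against control (horizontal axis) for the 10 TGFβ genes, coloured by role, with 95% intervals from limma and dotted lines at a 2-fold change in each direction. PMEPA1 at -2.17 and TGFBR1 at -1.26 lie beyond the lower line, while SMAD2 at -0.19 and SMAD3 at -0.13 lie nearest to 0.

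The balance of the signaling receptor genes was measured in RNA, not protein, within each library as the ratio of TGFBR2 to TGFBR1. This ratio does not depend on library scaling. It was 3.33, 3.19 and 3.74 with ACC and 0.913, 0.929 and 0.925 in control. In control cells both genes thus had about the same normalized count, and with ACC the type II receptor gene was ahead in all 3 libraries. A normalized count does not allow for gene length, so only the change of the ratio is free of length. In control, TGFBR2 and TGFBR1 had 20.2 and 18.8 scaled reads per kilobase of all annotated exons. Per kilobase of the MANE Select transcript they had 30.6 and 23.1, so TGFBR2 was then already ahead. The ratio was 3.70-fold higher with ACC, a difference of 1.89 on the log2 scale with SDs of 0.118 with ACC and 0.0130 in control (exact permutation test, two-sided, p = 0.10, adjusted p = 0.125 over 5 pairs). This p is the smallest that 3 against 3 libraries allow, so no ratio could pass 0.05.

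SMAD2 and SMAD3, the transducers that the type I receptor phosphorylates, changed least. SMAD2 on chromosome 18, from 47808957 to 47931146, had 2683, 2762 and 2741.5 normalized counts with ACC and 3186, 3142 and 2983 in control. The gap between the groups was small, from 2762 with ACC replicate 2 to 2983 in control replicate 3. The log2 fold change was -0.19 (SE 0.0386, limma adjusted p = 0.000695), or 88.0% of the control level.
SMAD3, on chromosome 15 from 67063763 to 67195173, had 6459, 6749.7 and 6561 normalized counts with ACC and 7046, 6968 and 7671 in control. Control replicate 3 stood above the rest, and the other control values lay only a little over those with ACC. Its log2 fold change of -0.13 (SE 0.0392, limma adjusted p = 0.0105) was the smallest of the 10. SMAD3 was also the only one of the 10 that did not stay past the adjusted p under every alternative. Without ACC replicate 1 the adjusted p was 0.0501, and limma without a mean-variance trend gave 0.125. SMAD3 shares 182 exon bases with a long noncoding RNA gene on the other strand, which had 11 to 22 reads per library.
The ratio of SMAD3 to SMAD2 was 2.41, 2.44 and 2.39 with ACC and 2.21, 2.22 and 2.57 in control. Here the groups overlapped, and the difference on the log2 scale was 0.05 (exact permutation test, two-sided, p = 0.40, adjusted p = 0.40 over 5 pairs), ranging from 0.0159 without control replicate 1 to 0.125 without control replicate 3. With 3 libraries a group, this does not show that the genes changed alike.

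All 3 feedback genes were lower with ACC, by unequal amounts. PMEPA1 encodes a membrane protein that binds the receptor-activated SMADs and withholds them from the receptor, and lies on chromosome 20 from 57648392 to 57711536. It had 5197, 5472 and 4859 normalized counts with ACC and 24093, 24056 and 21844 in control. The most abundant of the 10 genes in control cells, it fell to 22.2% of the control level (log2 fold change -2.17, SE 0.0450, limma adjusted p = 2.14e-16), a 4.51-fold lower value with a 95% interval of the log2 fold change from -2.27 to -2.08.
NKILA, a long noncoding RNA gene on the other strand that shares 343 exon bases with PMEPA1, had 75.5, 79.0 and 70.6 normalized counts with ACC and 457, 413 and 452 in control. It was named after its values were seen. NKILA was lower together with PMEPA1 (log2 fold change -2.54, SE 0.0911, limma adjusted p = 1.49e-13), and reads of the shared exon bases cannot be assigned to either without strand.
SMAD7 encodes the inhibitory SMAD that blocks the type I receptor and recruits ubiquitin ligases to it, and lies on chromosome 18 from 48919853 to 48950965. Its normalized counts were 369.9, 405 and 356 with ACC and 744, 733 and 761 in control. ACC replicate 2 was the highest of its group, and all 3 ACC values lay near 50.5% of control (log2 fold change -0.98, SE 0.0616, limma adjusted p = 3.27e-10). Without that library the log2 fold change was -1.04 and SMAD7 passed the 2-fold threshold, which in the full comparison it did not.
SKIL encodes SnoN, a repressor that binds SMAD complexes on DNA, and lies on chromosome 3 from 170357342 to 170396835. It had 1400.3, 1431 and 1423 normalized counts with ACC and 1953.5, 1824 and 1759.7 in control. The ACC libraries lay close together (SD 16.0), while control spread more widely (SD 98.7). SKIL fell to 76.9% of the control level (log2 fold change -0.38, SE 0.0453, limma adjusted p = 1.68e-06).
Set against SKIL in the same library, PMEPA1 had a ratio of 3.71, 3.82 and 3.41 with ACC and 12.3, 13.2 and 12.4 in control, 3.47-fold lower. The ratio of SMAD7 to SKIL was 0.265, 0.284 and 0.251 with ACC and 0.381, 0.402 and 0.433 in control, 1.52-fold lower. Neither ratio overlapped between the groups, and each had the smallest p that the design allows (exact permutation test, two-sided, p = 0.10, adjusted p = 0.125 over 5 pairs). That p cannot pass 0.05. Single genes did not overlap in 51.4% of all tested genes, and the share of ratios that do not overlap among other gene pairs was not computed. In these libraries each ratio differed more between the groups than within a group.

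**Figure D3:**
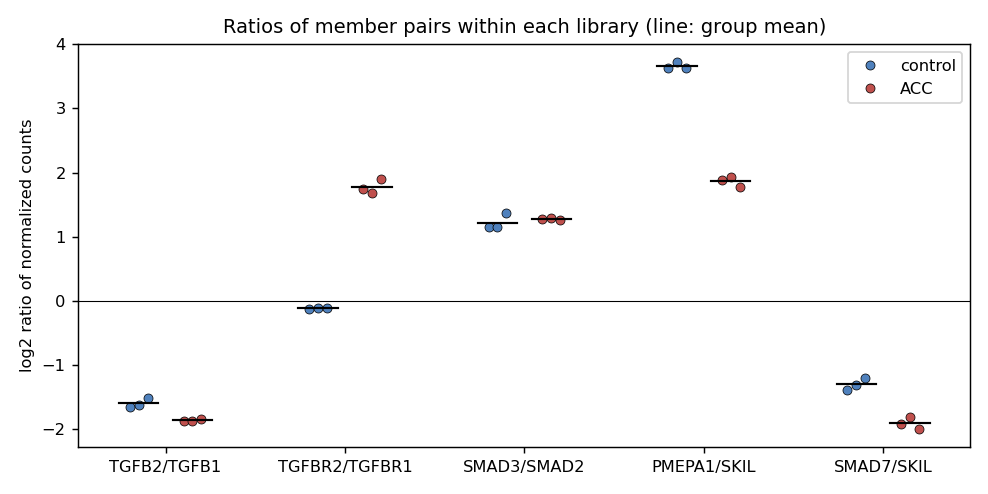
Log2 ratio of the normalized counts of 5 pairs of TGFβ genes within each library (vertical axis), for control and ACC, with 1 point per library and a line at the group mean. TGFBR2 to TGFBR1 moves from below 0 to about 1.77 and PMEPA1 to SKIL from 3.66 to 1.87, while the groups overlap for SMAD3 to SMAD2.

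Levels of different genes were compared per length, as RPKM, the reads per kilobase of exon scaled to the total reads in genes, with exons from GENCODE 44. In control cells PMEPA1 was highest at 184 ± 11.2 RPKM (SD, n = 3), followed by TGFB1 at 99.6 ± 4.15 and SMAD3 at 32.7 ± 1.55. TGFBR2 at 20.2 ± 0.829 and TGFBR1 at 18.8 ± 0.829 were neighbours whose libraries overlapped, as did those of TGFBR1 and TGFB2, which had 17.8 ± 0.241. SKIL had 10.3 ± 0.609, SMAD7 8.56 ± 0.121, SMAD2 3.86 ± 0.156 and TGFBR3 1.39 ± 0.0827.
With ACC, TGFB1 was the highest of the 10, at 61.8 ± 0.926 RPKM (SD, n = 3), and PMEPA1 came next at 40.7 ± 2.53. TGFBR2 at 31.0 ± 1.05 and SMAD3 at 29.7 ± 0.700 overlapped. TGFB2 had 9.13 ± 0.0652, SKIL 7.87 ± 0.0905 and TGFBR1 7.78 ± 0.423, the last 2 of which overlapped, and SMAD7 had 4.31 ± 0.302, SMAD2 3.38 ± 0.0511 and TGFBR3 2.71 ± 0.0429. The order depends in part on the length used. With the length of the MANE Select transcript, an alternative chosen after the values were seen, TGFBR3 with ACC had 3.66 RPKM and SMAD2 3.55, and TGFBR1 had 9.58 and TGFB2 9.42, so that the means of both pairs changed places while their libraries overlapped. By that length the mean of TGFBR1 also passed that of SKIL, at 8.93, again with libraries that overlapped, and PMEPA1 at 47.1, TGFBR2 at 46.9 and SMAD3 at 45.9 overlapped. In control cells the MANE Select length gave TGFBR2 30.6, TGFBR1 23.1 and TGFB2 18.3 RPKM. The libraries of these genes did not overlap by that length, unlike those above. SMAD2 has by far the longest exons of the 10, at 36426 bases, which lowers its level per length.

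The other genes of the pathway were taken from 5 lists written from general knowledge, with earlier results of these data known, and are described by their counts. The shares to read them against are the 21.9% lower and 21.3% higher of all tested genes, and the 31.8% and 28.9% of those with a mean of at least 200 counts.
Genes on the list for latency and activation of the ligands were mostly lower. Of 13 tested, 8 were lower and 4 higher, with a median log2 fold change of -0.48. The 61.5% lower stood against 21.9% of all tested genes and 31.8% of the more abundant ones, and the 30.8% higher was near the 28.9% of the latter. ITGB6, whose protein pairs with that of ITGAV in an integrin that activates latent TGFβ, had 34.5, 34.7 and 37.9 normalized counts with ACC and 266, 243 and 209.9 in control (log2 fold change -2.71, limma adjusted p = 5.97e-12). Its partner gene ITGAV had a log2 fold change of -0.71. LTBP2, listed for its family of latent TGFβ binding proteins, had -1.56. Whether its own protein holds TGFβ was not tested. LTBP1 and LTBP3 of the same family, named after their values were seen, were lower by less (log2 fold changes -0.48 and -0.51). THBS1, which encodes the activator thrombospondin 1, had -0.59. LTBP4 was the only tested gene of the list that did not pass (log2 fold change 0.01, limma adjusted p = 0.868). The higher genes were LRRC32, ITGB8, ITGB5 and FURIN, named after their values were seen. LRRC32, whose protein anchors latent TGFβ on the cell surface, had 85.7, 117.5 and 85.9 normalized counts with ACC and 19.3, 20.45 and 10.45 in control (log2 fold change 2.50, limma adjusted p = 8.09e-08). ITGB6 and LRRC32 therefore moved in opposite directions, each with groups that did not overlap.

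Genes for decoy receptors and ligand traps were higher. Of 6 tested genes for the other ligand, receptors and traps, 3 were higher and 0 lower, and TGFB3, ENG and ACVRL1, each under 30 normalized counts in every library, did not pass. The share of higher genes was 50%, against 21.3% of all tested genes, in a list of only 6. TGFB3, the third ligand gene, had a log2 fold change of -0.49 (limma adjusted p = 0.147). BAMBI, a receptor-like protein without a kinase that blocks signaling, had 2634, 2796 and 2667 normalized counts with ACC and 906, 880.2 and 745.5 in control. That was 3.21-fold higher with ACC (log2 fold change 1.68, SE 0.0597, limma adjusted p = 1.32e-13). VASN, whose protein binds TGFβ, had a log2 fold change of 1.16, and CD109, which encodes a co-receptor that dampens signaling, had 0.43 (adjusted p = 4.21e-11 and 1.03e-07 from limma). These 3 inhibitors rose while the feedback inhibitors SMAD7, SKIL and PMEPA1 fell.

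Partners of the SMADs changed little. Of 12 tested, 4 were lower and 2 higher, with a median log2 fold change of 0.03, and none changed 2-fold. The 33.3% lower was near the 31.8% of the more abundant tested genes, and the 16.7% higher was under their 28.9% and the 21.3% of all tested genes. USP15 and USP11, which encode deubiquitinases that act on the pathway, had log2 fold changes of -0.46 and -0.15. The ubiquitin ligase gene TRIM33 had -0.19, and the nuclear import gene IPO7 had 0.12. IPO7 did not pass with limma without a trend (adjusted p = 0.1004) or without ACC replicate 3 (limma adjusted p = 0.0642). The coactivator gene CREBBP had 0.01 (limma adjusted p = 0.93). HGS was also lower and EP300 higher, named after their values were seen. SMAD4, the shared partner of SMAD2 and SMAD3, had 1124, 1128 and 1086 normalized counts with ACC and 1036, 1063 and 1024 in control, and did not pass (log2 fold change 0.10, limma adjusted p = 0.101). It too was named after its values were seen.
Of 12 other negative regulators, 7 were lower and 2 higher, and none changed 2-fold. These were 58.3% and 16.7%, against 21.9% and 21.3% of all tested genes and 31.8% and 28.9% of the more abundant ones. NEDD4L and WWP1, which encode ubiquitin ligases, were higher (log2 fold changes 0.56 and 0.43). STRAP, a partner of SMAD7 at the receptor, and the corepressor gene TGIF2 were lower (-0.45 and -0.66). SMAD6, an inhibitory SMAD known mainly from bone morphogenetic protein signaling, had 0.06 (limma adjusted p = 0.300). The remaining genes that did not pass were SMURF1 and LEMD3.

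Genes known to be switched on by TGFβ were mostly lower with ACC. Of 29 tested targets, 22 were lower and 5 higher, with a median log2 fold change of -0.52. The 75.9% lower and 17.2% higher stood against 21.9% and 21.3% of all tested genes and 31.8% and 28.9% of the more abundant ones. By the stricter rule with a 2-fold change and 30 reads, 12 of the 29 targets were lower and 1 higher, against 2.24% and 2.77% of all tested genes. For this rule the shares among the more abundant genes were not computed. TGFBI, a matrix protein named for its induction by TGFβ, had 22267, 22664 and 20666 normalized counts with ACC and 87846, 85929 and 78091 in control. It fell to 26.1% of the control level (log2 fold change -1.94, SE 0.0440, limma adjusted p = 3.61e-16). The basement membrane collagen gene COL4A1 had a log2 fold change of -2.14 and the cytokine gene IL11 had -3.11. COL1A1, with -2.15, is also on the list of fibroblast markers. The 5 higher targets were IGFBP3, FN1, HMGA2, TSC22D1 and EDN1, all but IGFBP3 named after their values were seen. IGFBP3, a binding protein of insulin-like growth factors, had 19286, 18558 and 19549 normalized counts with ACC and 8437, 8619 and 8171 in control, 2.27-fold higher. FN1, which encodes fibronectin, had a log2 fold change of 0.89. GADD45B and PLAUR did not pass, and GADD45B, the more abundant of them, had a log2 fold change of -0.13 (limma adjusted p = 0.0629), but passed when ACC replicate 3 or control replicate 2 was left out (0.0311 and 0.0336) and with scaling by total reads (0.0483). Target genes respond to other signals too, and the part of TGFβ in these changes was not tested.

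**Figure D4:**
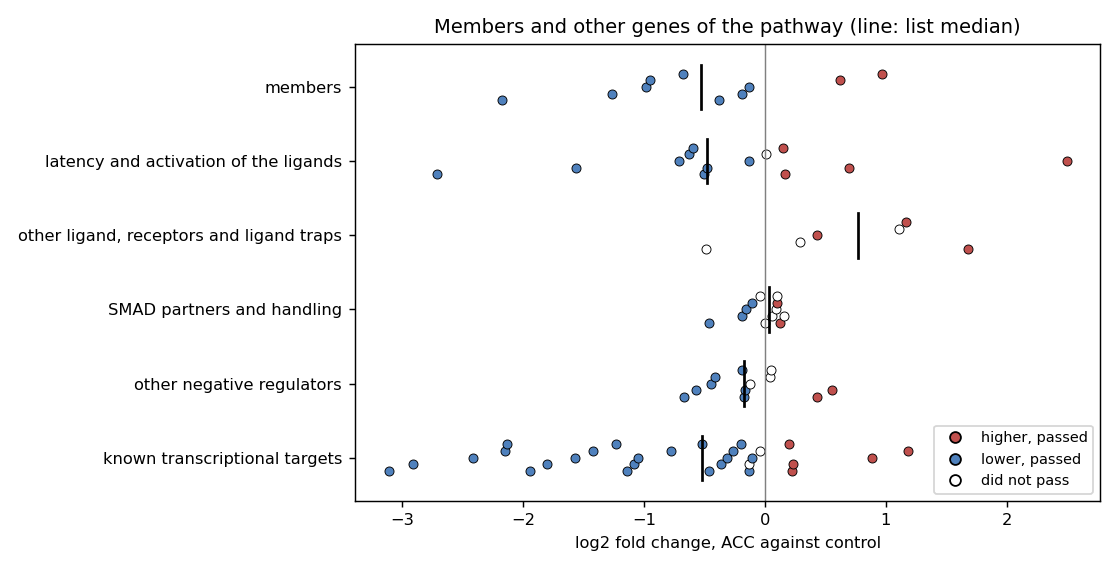
Log2 fold change with ACC against control (horizontal axis) of the 10 TGFβ genes and of 5 lists of other pathway genes, with 1 point per gene, filled where the adjusted p from limma was 0.05 or less, and a line at the median of each list. Medians lie at -0.53 for the 10 genes, at -0.52 for the targets and at 0.03 for the SMAD partners, and the 3 genes that passed on the list of traps are all to the right of 0.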

How the data were processed

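RNA from 6 A549 cultures, 3 per group by the titles in the labels, was sequenced. The authors deposited a signal per gene, read counts scaled by size factors from DESeq2, after trimming with Cutadapt, mapping to GRCh38 with STAR 2.4.2a and counting with htseq-count. In each library 100% of the positive values lay within 0.1 read of a whole multiple of 1 step, which gave back the reads per gene. limma 3.58.1 (R 4.3.3), with a mean-variance trend, was fitted to log2(normalized count + 1) of the 19318 genes summing to at least 10, with Benjamini-Hochberg adjustment over all of them. All fold changes refer to log2(normalized count + 1) and are too small for genes with few reads. Called genes also had a 2-fold change and at least 30 reads in 1 library, as in the study's methods.

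The 10 members and the pathway lists were chosen with earlier results of these data known. Genes named beyond the 10 are, per list, the 4 with the smallest adjusted p among those that passed and the most abundant that did not, unless stated. Alternatives were other scalings, filters, pseudocounts and tests (voom, edgeR 4.0.16 quasi-likelihood and DESeq2 1.42.0 on the recovered reads), the replicate number as a block, and the omission of each library in turn. No library was a copy of another, since chi-square per gene between replicates averaged 2.59 to 5.25, above sampling noise. The fit was tested on simulated data. The authors' own comparison columns (fold changes and p-values) were not used. NOX4 was not analysed here, and NRROS and CDKN2B did not reach the filter. Protein sequences were not used here. No column of values was left unmapped.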

Additional observations from a re-analysis of the deposited data

How the results depend on the processing

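Under the 17 alternatives, 9 of the 10 TGFβ genes kept their direction and stayed past the adjusted p, and SMAD3 kept its direction but was lost under 2, with an adjusted p of 0.125 from limma without a trend and 0.0501 without ACC replicate 1. For each of the 10 the highest adjusted p came from limma without a trend. It was 0.000177 for PMEPA1, 0.000302 for TGFBR1 and 0.0302 for SMAD2, so the size of the adjusted p-values depends on the test. Of the 10, none was called higher, and 0 to 1 when a library was left out. For the SMAD partners the count of higher genes was 2, and it was 1 with scaling by total reads, with no filter, with DESeq2 and with the replicate block, 0 without a trend, 3 with TMM scaling, a filter of 30 reads in 1 library or edgeR, and 0 to 2 when a library was left out. The count of higher genes for latency and activation was 4, and 2 without a trend. Values near 0 changed sign: CREBBP was -0.00168 with scaling by total reads and ranged from -0.0108 to 0.0174 when a library was left out, and LTBP4 from -0.0473 to 0.0536. The cause of these changes was not tested.

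Deviations of same-numbered libraries correlated at -0.125, 0.0787 and -0.0673, so the replicate numbers were not taken to pair the cultures. With the replicate block 8 of the 10 genes were lower and 2 higher, as without it, and the genes called over the whole table were 536 higher and 432 lower. edgeR called 551 higher and 430 lower. Another scaling moved the median of all genes by less than 0.1 on the log2 scale. The share of counting error in the spread was not computed. TGFBR3 had 256 to 296 reads in control, and SMAD7 had 348 to 421 reads with ACC. The 3 libraries per group limit the tests of ratios.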
